A study of Mus musculus with 6 samples.

Results

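Clustered protocadherins are cell surface adhesion molecules encoded by neighbouring genes on mouse chromosome 18. The 58 genes described here were selected on their symbols among the 49315 genes of the count table: 14 genes of the alpha cluster, 22 of the beta cluster and 22 of the gamma cluster. The family was proposed for description with results of these same libraries known, so that every value below is a description and no test was made. All 58 identifiers were found in the mouse annotation GENCODE M21 on build GRCm38, where they lie on the forward strand of chromosome 18. The alpha cluster spans positions 36930184 to 37187661, the beta cluster 37264938 to 37524479 and the gamma cluster 37661793 to 37841873. The annotation lists 57 of them as protein coding and Pcdhgb8 as a polymorphic pseudogene, and 2 rows of the alpha cluster carry the symbol Pcdha11 under the identifiers ENSMUSG00000007440 and ENSMUSG00000102206.

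Most clustered protocadherins bind the same isoform on a facing cell, and the family is best known from neurons, where single cells switch on different subsets of promoters and so acquire a surface identity. Alpha and gamma genes join a large variable exon, which encodes the extracellular cadherin repeats and the membrane span, to constant exons that encode a common cytoplasmic tail. Beta genes have no such common tail. The C-type genes at the ends of the alpha cluster (Pcdhac1 and Pcdhac2) and the gamma cluster (Pcdhgc3, Pcdhgc4 and Pcdhgc5) are regulated apart from the rest, and in neurons they are expressed less randomly. The architectural protein CTCF and cohesin take part in promoter choice, and the tail of alpha and gamma proteins contacts focal adhesion kinases.

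The libraries came from lungs of male C57BL/6J mice that received sterile saline (sham) or bleomycin (BLM), a drug that injures the lung and is used to model pulmonary fibrosis, through the oropharynx. Lungs were taken 21 days later, 2 to 3 lungs of a group were pooled per tube, and the dissociated live cells were left unsorted or were sorted with an antibody to Lamp1, a lysosomal membrane protein that can also stand on the cell surface. This gave Lamp1-enriched, Lamp1-depleted and unsorted cells for each treatment. No genetic change is stated for any group, and the age of the mice is not given in the sources used here. There was 1 library for each of the 6 conditions, so animals cannot be separated and no replicate error exists. Polyadenylated RNA was sequenced and reads were counted per gene.

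Totals ranged from 30236120 to 52918696 counted reads, of which 0.00784% to 0.0781% fell on the 58 genes. Levels are given as raw reads or as CPM, the reads per 1000000 reads of a library whose total is scaled with edgeR's TMM factors. A log2 ratio is the difference between a pair of libraries, and its range in brackets is a 95% Clopper-Pearson interval that covers counting error only. A gene was compared where the higher library held at least 10 reads, and it was counted as higher or lower at a ratio of at least 2-fold. The floor was 3 reads per library, which corresponds to 0.0550 CPM in BLM Lamp1-enriched cells and 0.142 CPM in BLM Lamp1-depleted cells. In the latter library 38.4% of reads fell on the noncoding gene Gm26917, against 0.884% to 7.10% elsewhere, so its ratios depended most on scaling. In dissociated cells, fewer cells of a type and less RNA per cell cannot be told apart.

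The gamma cluster carried most protocadherin reads in every library, from 74.9% in sham Lamp1-enriched cells to 87.9% in BLM Lamp1-depleted cells. Beta genes held 10.6% to 23.5% and alpha genes 1.31% to 5.83%. Summed over its genes, the gamma cluster stood at 476, 83.3 and 430 CPM in unsorted, Lamp1-depleted and Lamp1-enriched sham cells, and at 271, 98.6 and 570 CPM in the BLM libraries in the same order. The beta cluster stood at 80.4, 15.6 and 114 CPM in the sham libraries and at 66.0, 11.9 and 178 CPM in the BLM libraries. The alpha cluster stood at 25.7, 6.12 and 30.01 CPM in the sham libraries and at 6.06, 1.70 and 9.96 CPM in the BLM libraries. Lamp1-depleted cells were thus the lowest of the 3 libraries for every cluster in both treatments, and the alpha cluster was lower in each BLM library than in its sham counterpart. The alpha sums rested mostly on the gene Pcdhac2.

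**Figure D1:**
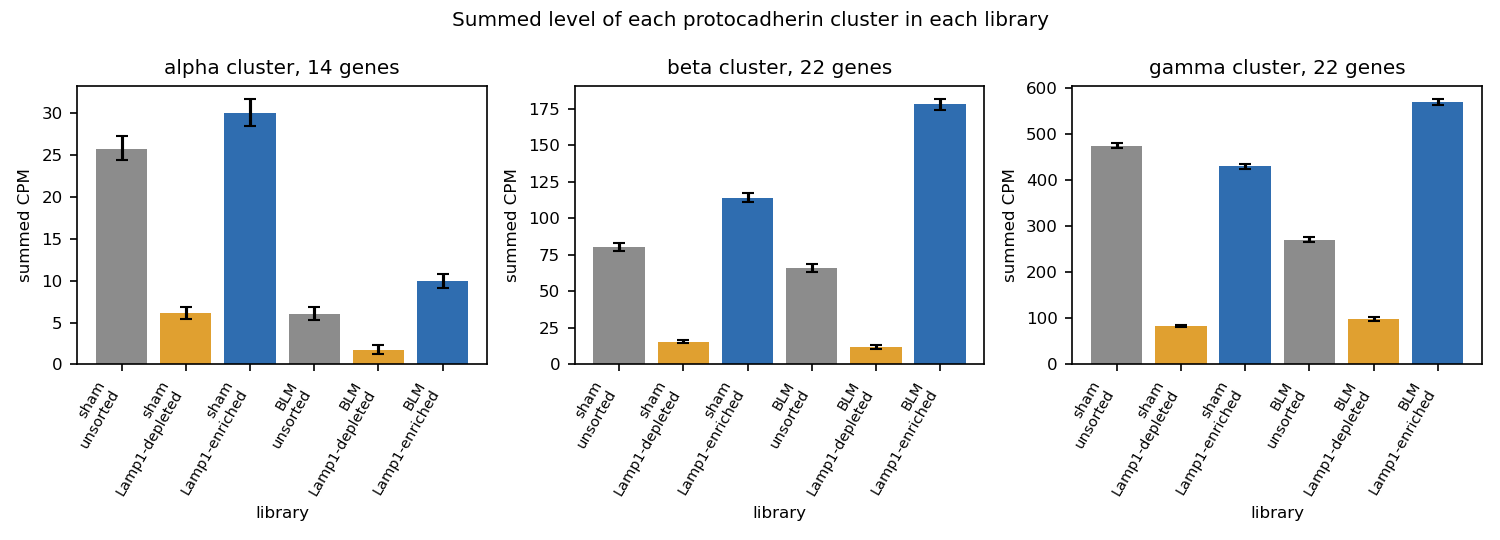
Summed level of each cluster in each library. Bars give CPM on a linear axis from 0, with 95% exact Poisson intervals for counting error, for unsorted (grey), Lamp1-depleted (orange) and Lamp1-enriched (blue) cells of 1 library each. The Lamp1-depleted bars are the lowest within each treatment, and the alpha bars of BLM libraries lie below those of the sham libraries.

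The number of genes with signal differed between clusters. In sham unsorted cells, 22 of 22 beta genes and 21 of 22 gamma genes had at least 10 reads, against 3 of 14 alpha genes. In BLM Lamp1-depleted cells these numbers fell to 9 beta, 20 gamma and 1 alpha gene. Over all 58 genes, those with more than 3 reads numbered 54 in sham unsorted cells and 39 in BLM Lamp1-depleted cells, the extremes. Reads were spread over many beta and gamma genes: the effective number of genes (the inverse Simpson index of their shares) was 10.5 to 14.7 in the beta cluster and 14.3 to 16.8 in the gamma cluster, and 1.11 to 1.58 in the alpha cluster.

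Per kilobase of exon that no other family member shares, gamma genes were the most abundant. Their median was 7.47 CPM per kilobase in sham unsorted cells, against 0.709 for beta genes and 0.0413 for alpha genes. The same order of medians held in each library, with gamma at 1.16 and beta at 0.125 in sham Lamp1-depleted cells, and gamma at 8.75 and beta at 1.74 in BLM Lamp1-enriched cells. Pcdhgb2 was the highest of the 58 genes on this scale in sham unsorted cells (15.3 CPM per kilobase) and in BLM Lamp1-enriched cells (24.9). The C-type gene Pcdhac2 reached 7.82 in sham unsorted cells, above the gamma median, whereas every other alpha gene was at or below 0.177. Over whole exon length the gamma median was 4.32 and Pcdhac2 stood at 4.02, below it. How reads on the shared constant exons of alpha and gamma genes were assigned is not given in the sources used here.

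**Figure D2:**
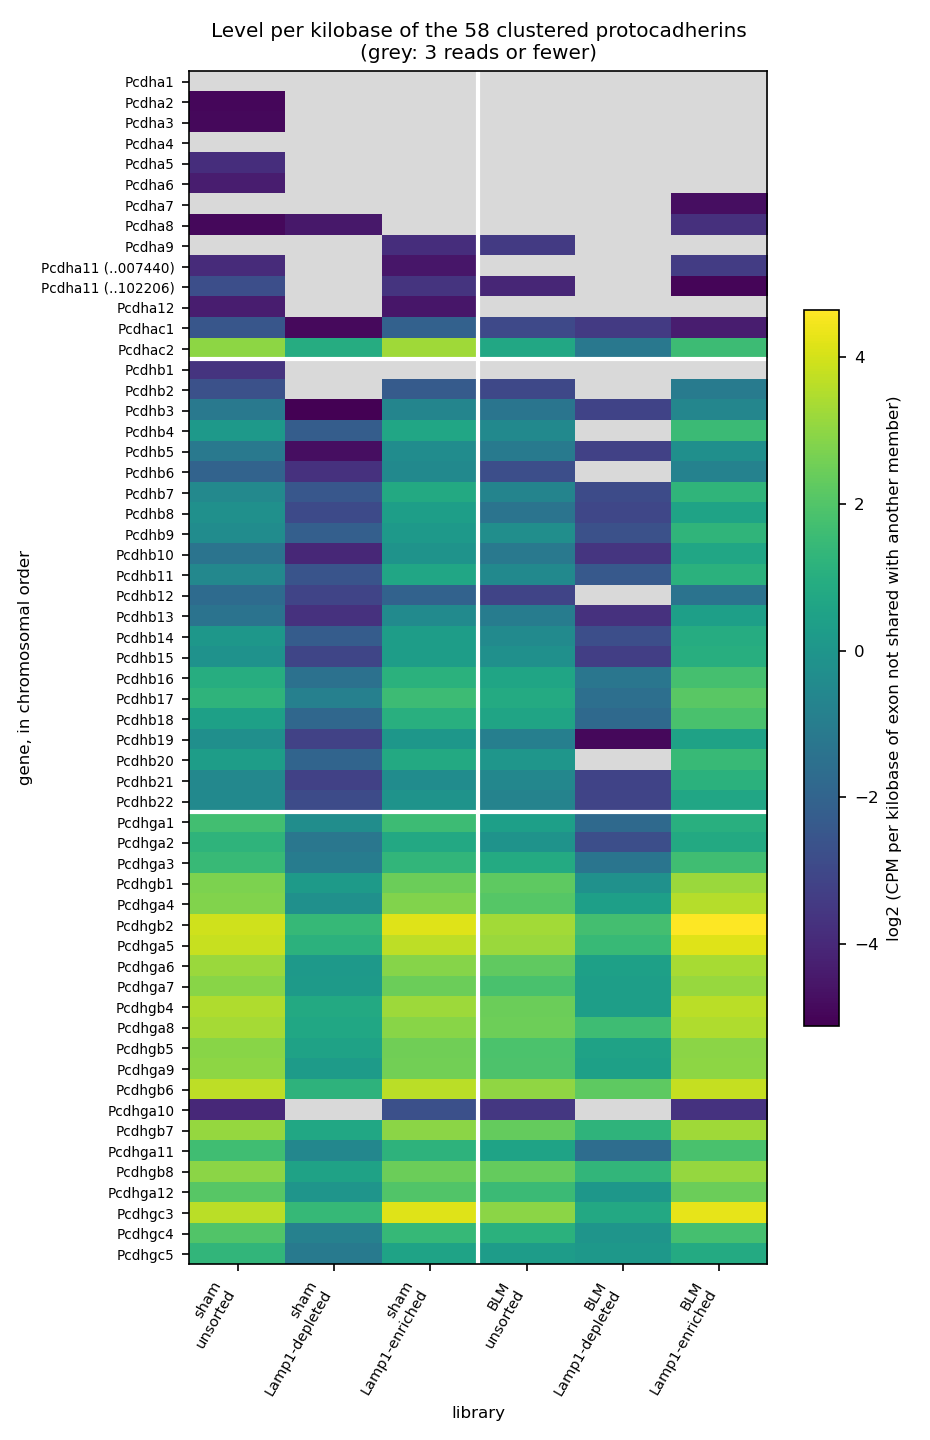
Level of the 58 genes in the 6 libraries, as log2 CPM per kilobase of exon that no other member shares, with genes in chromosomal order and grey where a library held 3 reads or fewer. Gamma genes other than Pcdhga10 are brightest, Pcdhac2 stands out among the alpha genes, and most of the alpha block is grey.

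Among alpha genes, Pcdhac2 took nearly all reads, with 77.8% of them in BLM Lamp1-depleted cells and 95.1% in sham Lamp1-enriched cells at the extremes. It had 1149, 262 and 1313 reads in unsorted, Lamp1-depleted and Lamp1-enriched sham cells and 200, 28 and 494 reads in the BLM libraries. In unsorted cells its CPM was 4.66-fold lower in BLM than in sham, and no BLM library reached the CPM of its sham counterpart. Pcdhac1, the other C-type alpha gene, had 22, 4 and 28 reads in the sham libraries and 13, 5 and 7 reads in the BLM libraries. The Pcdha11 row ENSMUSG00000102206 had 33, 0 and 17 reads in sham and 11, 0 and 8 in BLM, and 1268 of its 7535 exon bases are free of other members and of genes on either strand. The Pcdha11 row ENSMUSG00000007440 had 8, 3 and 5 reads in sham and 2, 0 and 13 in BLM. Pcdha8 (4, 5 and 3 reads, then 0, 0 and 10) and Pcdha9 (3, 2 and 8, then 9, 0 and 2) were close to the floor, and the remaining alpha genes had at most 8 reads in any library. Apart from the C-type genes, the 12 alpha rows summed to 79, 13 and 40 reads in sham and 26, 3 and 42 in BLM, a level at which single genes could not be ordered.

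Pcdhb17 was the beta gene with the most reads in every library but BLM Lamp1-depleted, at 10.9, 2.57 and 13.9 CPM in sham and 8.34, 1.61 and 20.5 CPM in BLM. Pcdhb16 followed with 10.2, 1.89 and 11.4 CPM in sham and 7.96, 2.13 and 17.8 CPM in BLM. Pcdhb14 stood at 9.08, 1.78 and 10.9 CPM, then 6.34, 1.28 and 16.4 CPM. These 3 genes, with Pcdhb18, were each highest in BLM Lamp1-enriched cells. Pcdhb18 had 6.88, 1.40 and 10.5 CPM in the sham libraries and 7.63, 1.47 and 17.9 CPM in the BLM libraries. The values of Pcdhb19 were 5.95, 0.790 and 7.32 CPM in sham and 3.80, 0.237 and 10.1 CPM in BLM. For Pcdhb22 they were 4.39, 0.834 and 5.78 CPM in sham and 3.68, 0.710 and 9.76 CPM in BLM. Beta genes with little signal included Pcdhb1, which had 10, 0 and 1 reads in sham and 3, 0 and 2 reads in BLM.

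In the gamma cluster, Pcdhgc3, Pcdhgb2 and Pcdhgb6 each held the most reads in some library. Pcdhgb2 stood at 42.2, 7.48 and 49.7 CPM in sham and 27.0, 9.14 and 68.9 CPM in BLM. The C-type gene Pcdhgc3 stood at 41.7, 8.97 and 59.9 CPM in sham and 26.2, 5.73 and 66.3 CPM in BLM. Pcdhgb6 stood at 32.6, 5.90 and 32.0 CPM in sham and 20.6, 11.8 and 35.6 CPM in BLM, and it was the highest gamma gene in BLM Lamp1-depleted cells alone. A further 3 genes were highest in unsorted cells in sham and in Lamp1-enriched cells in BLM. They were Pcdhgb4 (40.2, 6.27 and 33.5 CPM in sham, then 19.6, 4.64 and 44.7 in BLM), Pcdhga5 (36.3, 5.59 and 32.2, then 22.7, 6.91 and 45.1) and Pcdhgb5 (34.5, 6.60 and 26.3, then 16.9, 6.58 and 35.1). The reads of any pair of libraries were set against each other over the genes of a cluster. Their Spearman correlation was 0.75 to 0.99 for gamma, 0.62 to 0.96 for beta and 0.27 to 0.86 for alpha genes. These values are a description, since reads were not divided by exon length, which a gene shares between libraries.

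Pcdhga10 was the exception among gamma genes, with 8, 2 and 18 reads in sham and 9, 0 and 11 in BLM. Its neighbours Pcdhgb6 and Pcdhgb7 had 1583 and 1090 reads in sham unsorted cells. All exon bases of Pcdhga10 that no other member shares are covered by exons of the antisense gene Gm26672, which had 1178, 204 and 848 reads in sham and 399, 22 and 1304 in BLM. Whether the counting used strand is not given in the sources used here. Among protein-coding genes above a minimum length, 21 had less than 5% of bases free of antisense exons, and 57.1% of these had under 10 reads over the 6 libraries. The share was 17.2% of 16820 genes with more than 95% free. The groups were not matched for level, and the part of antisense overlap in the low count of Pcdhga10 was not tested. Without the strand setting, reads of Pcdhga10 and Gm26672 could not be separated. Among the genes named here, part of Pcdha11 (ENSMUSG00000102206), Pcdhb12, Pcdhga1, Pcdhga7, Pcdhga8, Pcdhga11, Pcdhgb7 and Pcdhgc3 also overlaps antisense exons.

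The first comparison set Lamp1-enriched against Lamp1-depleted cells. In sham-treated mice all 46 compared genes were at least 2-fold higher in Lamp1-enriched cells, where 27.5% of all compared genes were higher and 25.2% were lower. Their median log2 ratio was 2.62, or 2.60 with genes at 0 reads held at their bound, against -0.01 over all genes. The beta cluster sum was 7.30-fold higher (log2 ratio 2.87, 2.75 to 2.98), the gamma cluster 5.17-fold (2.37, 2.32 to 2.42) and the alpha cluster 4.90-fold (2.29, 2.11 to 2.48). Every beta and gamma gene compared lay above 0 together with its counting interval. The ratios ranged from 1.05 for Pcdhb12 (34 against 16 reads) upward, and in the gamma cluster from 1.65 for Pcdhgc5 to 3.03 for Pcdhga4.

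Pcdhb3 (109 against 5 reads, log2 ratio 4.29), Pcdhb5 (126 against 6, 4.26) and Pcdhb10 (122 against 8, 3.83) had the highest beta ratios in sham cells among genes with at least 50 reads. Pcdhb2 had 26 reads in Lamp1-enriched and 0 in Lamp1-depleted cells, which made it at least 8.59-fold higher. Among gamma genes with at least 50 reads, Pcdhga4 (507 against 61 reads) was followed by Pcdhgc3 with a ratio of 2.74 (2756 against 409 reads) and Pcdhgb2 with 2.73 (2289 against 341). Pcdhac2 had a ratio of 2.31 (2.12 to 2.51). Genes of all 3 clusters, the C-type genes included, were thus higher in the Lamp1-enriched library.

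In BLM-treated mice 45 of 46 compared genes were at least 2-fold higher in Lamp1-enriched cells, against 34.4% of all genes, and none was lower, against 22.6%. The exception was Pcdhgc5, with 539 against 125 reads and a log2 ratio of 0.74 (0.46 to 1.03). In 6 of the 45 the Lamp1-depleted library had 0 reads, and for Pcdha8, Pcdha11 (ENSMUSG00000007440) and Pcdhga10 the bound lay under 2-fold, which left 42. The median log2 ratio was 3.46, or 3.12 with these genes at their bound, against 0.29 over all genes. The beta cluster sum was 14.9-fold higher (log2 ratio 3.90, 3.72 to 4.09), the gamma cluster 5.78-fold (2.53, 2.47 to 2.60) and the alpha cluster 5.81-fold (2.54, 2.06 to 3.08).

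Several beta genes had few or no reads in BLM Lamp1-depleted cells. Pcdhb20 had 536 reads in Lamp1-enriched and 0 in Lamp1-depleted cells, at least 69.2-fold higher, whereas its sham ratio was 2.74 (286 against 42 reads). Pcdhb4 had 585 against 2 reads, a log2 ratio of 6.66 with an interval of 4.97 to 9.87. Pcdhb2 (73 against 0) was at least 9.43-fold higher, Pcdhb12 (63 against 0) at least 8.14-fold, and Pcdhb19 had a ratio of 5.35 (550 against 5). Pcdhb3 and Pcdhb5 went the other way, with ratios of 2.496 (134 against 9) and 2.92 (160 against 8) that were smaller than in sham. Of 21 beta genes compared in both treatments, 19 had the larger fitted ratio in BLM, as did 16 of 22 gamma genes. The share over all genes was not computed, but their median log2 ratio was also larger, at 0.29 in BLM against -0.01 in sham. With DESeq2 size factors the gamma sum had a log2 ratio of 2.38 in both treatments. The beta sum had 2.88 in sham and 3.75 in BLM. Whether the ratios differed between treatments was not tested, and no gene had intervals on opposite sides of 0.

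Gamma genes separated within BLM sorted cells. Pcdhga2 (248 against 8 reads, log2 ratio 3.55), Pcdhgc3 (3613 against 121, 3.53) and Pcdhga11 (509 against 18, 3.44) had the highest ratios among genes with at least 50 reads. At the other end stood Pcdhgb6 with 1.59 (1.40 to 1.79), Pcdhgb8 with 1.79, Pcdhgc4 with 1.80 (1.45 to 2.17) and Pcdhga8 with 1.86. Pcdhgc5, the last gene of the cluster, had the lowest ratio of all. Within a library, Pcdhgc5 had 28.4 reads per 100 reads of Pcdhgc3 in sham Lamp1-depleted cells (22.9 to 34.9) and 103 in BLM Lamp1-depleted cells (79.8 to 134). Lamp1-enriched cells gave 13.4 and 14.9 in the same order. This ratio does not depend on scaling between libraries.

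**Figure D3:**
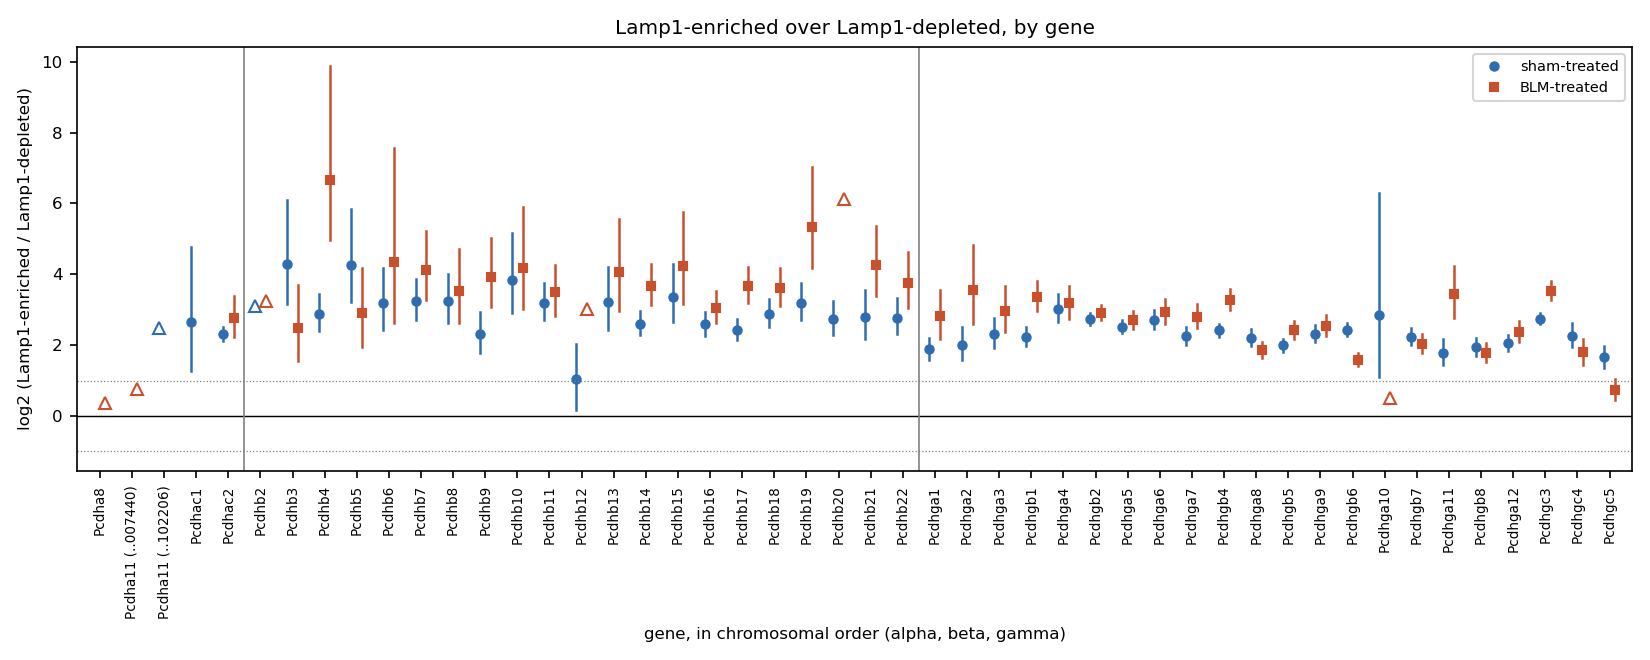
Log2 ratio of Lamp1-enriched over Lamp1-depleted cells by gene in sham-treated (blue circles) and BLM-treated (red squares) mice, with 95% counting intervals, for genes compared in either treatment. Open triangles are lower bounds for genes at 0 reads in Lamp1-depleted cells, and dotted lines mark 2-fold. A gene has no point for a treatment in which it was not compared. All points shown lie above 0, and those of Pcdhgc5 and Pcdhgb6 are lower in BLM than in sham.

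Against unsorted cells, Lamp1-enriched sham cells differed little: 5 of 47 compared genes were at least 2-fold higher, against 2.55% of all genes, and 1 was lower, against 15.8%. With total counts as the scale, 3 were higher and 2 lower. Beta genes lay above 0 in 20 of 22 cases and gamma genes below 0 in 18 of 22. The cluster sums had log2 ratios of 0.50 (0.44 to 0.56) for beta, -0.14 (-0.17 to -0.12) for gamma and 0.22 (0.11 to 0.33) for alpha, and with total counts as the scale they became 0.28 for beta, -0.37 for gamma and -0.00 for alpha. Pcdhb6 (2.69 against 0.927 CPM), Pcdhb7 (6.11 against 2.47), Pcdhb10 (2.65 against 1.11) and Pcdhb11 (6.89 against 2.97) were higher at 2-fold, together with Pcdhga10, and Pcdhb1 was lower with 1 against 10 reads. The interval of Pcdhga10 held 0 (18 against 8 reads). Pcdhgc5 (log2 ratio -0.76) and Pcdhgc4 (-0.54) were furthest below 0 among gamma genes, while Pcdhgc3 stood at 0.52.

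In BLM-treated mice 31 of 48 genes were at least 2-fold higher in Lamp1-enriched than in unsorted cells, against 12.6% of all genes. Only 1, Pcdhac1, was lower, against 19.1%, and its interval held 0 (7 against 13 reads). Of the 31, 19 were beta genes among 21 compared and 10 were gamma genes among 22. The sums had log2 ratios of 1.43 (1.37 to 1.49) for beta, 1.07 (1.04 to 1.11) for gamma and 0.72 (0.50 to 0.94) for alpha. Pcdhb4 (10.7 against 2.66 CPM) had the highest beta ratio at 2.01, followed by Pcdhb7 at 1.96 and Pcdhb6 at 1.92. Pcdhga4 (1.49) led the gamma genes. These comparisons share their Lamp1-enriched library with those above, so their values stand side by side only.

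The second question was how BLM and sham libraries differed in each kind of cell. In unsorted cells none of 46 compared genes was at least 2-fold higher in BLM, against 13.9% of all genes, and 13 were lower, against 16.0%. Besides the beta and gamma genes, these 13 held Pcdhac2 and Pcdha11 (ENSMUSG00000102206). All 21 compared gamma genes lay below 0 with their intervals, and 8 of them were lower at 2-fold. The gamma sum had a log2 ratio of -0.81 (-0.85 to -0.78), the beta sum -0.29 (-0.36 to -0.21) and the alpha sum -2.09 (-2.29 to -1.89). The gamma genes furthest below 0 were Pcdhga2 (94 against 294 reads, -1.34), Pcdhga1 (166 against 510, -1.32) and Pcdhga11 (152 against 399, -1.09). Among beta genes, 3 were lower at 2-fold: Pcdhb12 (14 against 45 reads), Pcdhb1 (3 against 10) and Pcdhb8 (54 against 144, -1.11).

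In Lamp1-enriched cells the direction of most genes was the opposite. Of 48 compared genes, 42 lay above 0 in BLM, 5 were higher at 2-fold, against 10.2% of all genes, and 3 were lower, against 7.81%. Those lower were the alpha genes Pcdhac1, Pcdhac2 and Pcdha11 (ENSMUSG00000102206). The counts at 2-fold were thus near the background, while the median log2 ratio was 0.49 against 0.00 over all genes. The beta sum had a log2 ratio of 0.64 (0.59 to 0.69), the gamma sum 0.41 (0.38 to 0.43) and the alpha sum -1.59 (-1.74 to -1.45). Pcdhb21 had the highest ratio, 1.49 (1.23 to 1.77), with 504 reads in BLM against 151 in sham, or 9.25 against 3.28 CPM. Among genes with at least 50 reads, Pcdhb2 (73 against 26 reads, 1.23) and Pcdhb9 (401 against 158, 1.10) followed. The other 2 genes higher at 2-fold were Pcdha8 (10 against 3 reads, 1.34) and Pcdha11 (ENSMUSG00000007440; 13 against 5 reads, 1.06). The counting intervals of both held 0. Limited to genes with at least 50 reads, 3 were higher and 1 was lower. No gamma gene passed 2-fold, and the highest were Pcdhga4 (18.5 against 11.02 CPM, 0.75), Pcdhgb1 (23.9 against 14.3, 0.74) and Pcdhga7 (27.6 against 17.04, 0.69). Pcdhga1 lay below 0 with 6.75 against 9.63 CPM (-0.51, -0.72 to -0.31).

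Pcdhac2 was lower in BLM in each kind of cell, with log2 ratios of -2.22 (-2.45 to -2.01) in unsorted, -1.65 (-1.81 to -1.504) in Lamp1-enriched and -2.11 (-2.73 to -1.55) in Lamp1-depleted cells. Without Pcdhac2, the alpha sum had -1.06 (-1.65 to -0.53) in unsorted and -0.71 (-1.28 to -0.17) in Lamp1-enriched cells. In Lamp1-depleted cells it had 0.02 (-1.40 to 1.31), from 8 against 17 reads. Set against the gamma cluster of the same library, Pcdhac2 had 4.97, 6.90 and 6.63 reads per 100 gamma reads in unsorted, Lamp1-depleted and Lamp1-enriched sham cells. The BLM libraries had 1.87, 1.34 and 1.59. Each BLM library thus had a lower value than its sham counterpart, with counting intervals that did not overlap. The 3 libraries of a treatment are different kinds of cell with 1 library each, not replicates, and the intervals hold no variation between animals. Beta reads per 100 gamma reads were 16.9, 18.8 and 26.5 in sham and 24.4, 12.1 and 31.2 in BLM, so Lamp1-enriched cells had the largest beta share in both treatments.

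**Figure D4:**
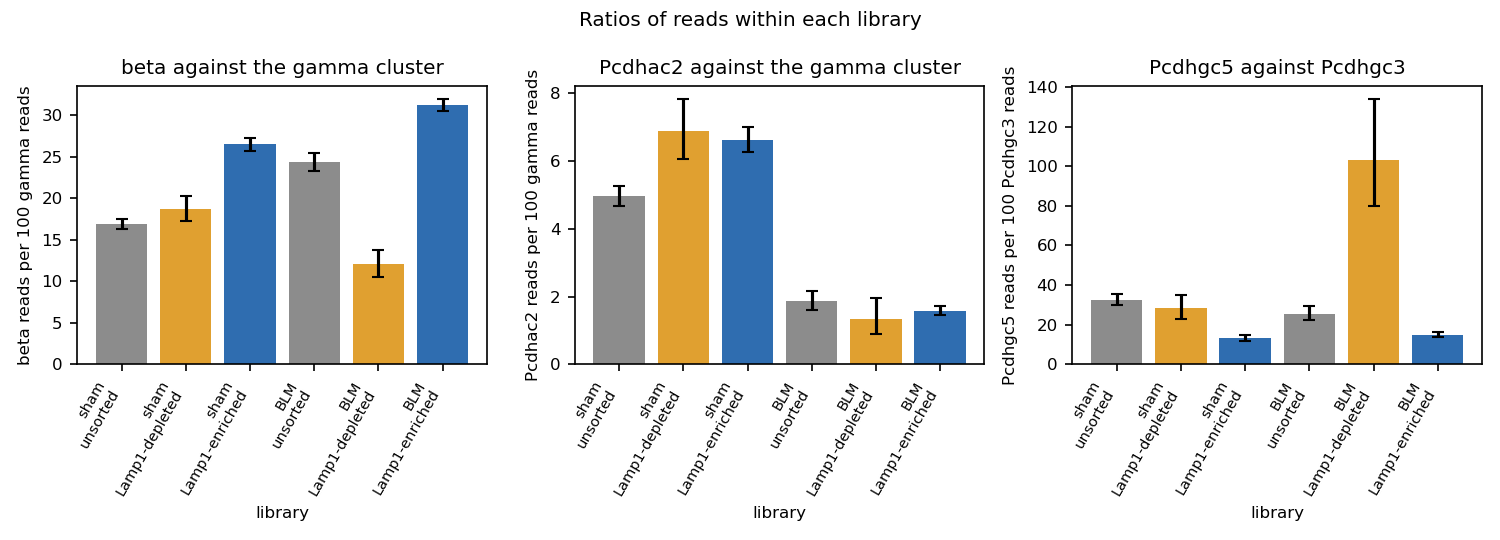
Reads per 100 reads within each library, which need no scaling: beta against gamma cluster, Pcdhac2 against gamma cluster, and Pcdhgc5 against Pcdhgc3. Bars start at 0 and carry 95% counting intervals, with 1 library per bar. Pcdhac2 is lower in all 3 BLM bars, and the Pcdhgc5 bar of BLM Lamp1-depleted cells stands above the other 5.

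Of 21 gamma genes compared in both unsorted and Lamp1-enriched cells, 19 had intervals above 0 in Lamp1-enriched and below 0 in unsorted cells, and of 21 beta genes 6 did. None showed the reverse. The share of all genes with such opposite intervals was not computed, and intervals that cover counting error only are narrow at high read numbers. Pcdhgb2 is an example, at 27.0 against 42.2 CPM in unsorted cells and 68.9 against 49.7 CPM in Lamp1-enriched cells. Pcdhb17 followed the same course, at 8.34 against 10.9 CPM and then 20.5 against 13.9 CPM. Pcdhb18 differed from it, with 7.63 against 6.88 CPM in unsorted cells.

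**Figure D5:**
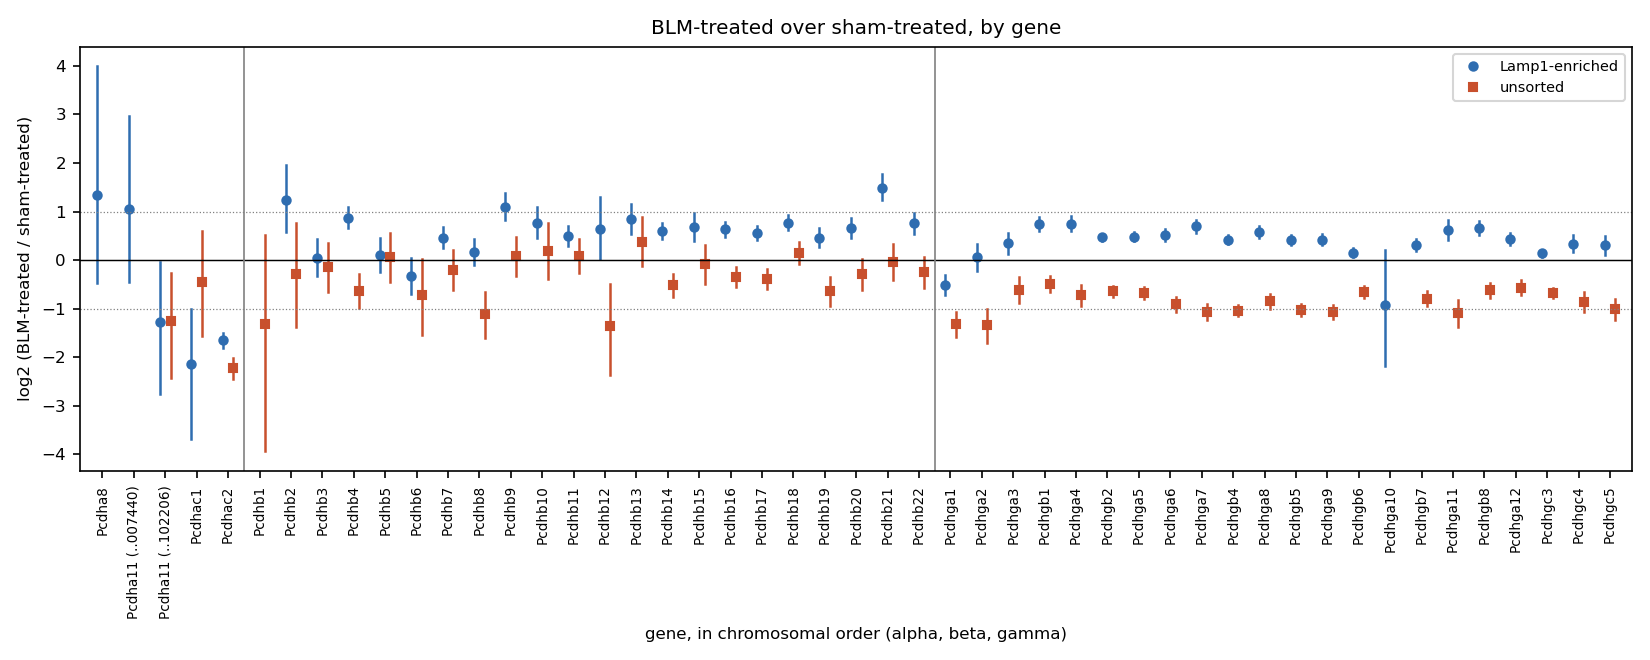
Log2 ratio of BLM over sham by gene in Lamp1-enriched (blue circles) and unsorted (red squares) cells, with 95% counting intervals, for genes compared in either. Dotted lines mark 2-fold. Most gamma genes lie above 0 in Lamp1-enriched and below 0 in unsorted cells, while Pcdhac2 is below 0 in both.

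In Lamp1-depleted cells 2 of 39 compared genes were at least 2-fold higher in BLM, against 13.7% of all genes, and 9 were lower, against 22.3%. Total counts as the scale gave 0 higher and 17 lower, and total counts outside Gm26917 gave 1 higher. The genes that were higher were Pcdhgc5 (125 against 116 reads, 5.92 against 2.54 CPM, log2 ratio 1.21) and Pcdhgb6 (250 against 269 reads, 11.8 against 5.90 CPM, 1.003). Their ratios were 0.50 and 0.28 with total counts, and 1.14 and 0.93 with total counts outside Gm26917. Those lower were Pcdhac2, the gamma genes Pcdhga1 (-1.45), Pcdhga2 (-1.48) and Pcdhga11 (-1.03), and the beta genes Pcdhb4, Pcdhb6, Pcdhb12, Pcdhb19 and Pcdhb20. Pcdhb20 was at least 6.49-fold lower, with 0 against 42 reads. Among beta genes with at least 50 reads, Pcdhb17 (-0.67), Pcdhb14 (-0.47) and Pcdhb16 (0.17) had the largest ratios in size. The gamma sum had a log2 ratio of 0.24 (0.17 to 0.32), which turned to -0.48 with total counts as the scale. The beta sum stood at -0.39 (-0.60 to -0.18) and the alpha sum at -1.84 (-2.39 to -1.34).

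Markers of several lung cell types moved with these comparisons. Summed over 6 endothelial markers (among them Pecam1 and Cdh5), the level was 3734, 908 and 6051 CPM in unsorted, Lamp1-depleted and Lamp1-enriched sham cells and 2337, 711 and 6349 CPM in BLM, and all 6 were at least 2-fold higher in Lamp1-enriched than in Lamp1-depleted cells in both treatments, against 27.5% of all genes in sham and 34.4% in BLM. Lymphocyte markers were the reverse, at 101, 1625 and 85.4 CPM in sham and 44.2, 330 and 27.2 CPM in BLM. Fibroblast markers stood at 451, 82.0 and 222 CPM, then 909, 184 and 937 CPM, and smooth muscle and pericyte markers at 252, 37.2 and 300 CPM, then 177, 38.1 and 188 CPM. The fibroblast sums were carried by collagen genes: Col1a1, Col1a2 and Col3a1 were at least 2-fold higher in each BLM library than in its sham counterpart. Of all genes, 13.9% were higher in unsorted, 13.7% in Lamp1-depleted and 10.2% in Lamp1-enriched cells. Of the other 4 fibroblast markers, 2 were lower in unsorted, 4 in Lamp1-depleted and 1 in Lamp1-enriched cells. The shares of all genes that were lower were 16.0%, 22.3% and 7.81%. The median log2 ratios of BLM over sham over all 7 fibroblast markers were 0.03, -1.18 and 0.86 in the same order. Macrophage markers stood at 416, 137 and 109 CPM in sham and 2552, 220 and 297 CPM in BLM. Epithelial markers stood at 1258, 153 and 922 CPM in sham and 386, 126 and 279 CPM in BLM, and platelet markers at 271, 35.7 and 888 CPM, then 45.0, 11.2 and 124 CPM. The epithelial sum fell between sham and BLM Lamp1-depleted cells. Yet 4 of its 8 markers were higher, against 13.7% of all genes, and 2 were lower, against 22.3%. The median log2 ratio of the 8 was 0.50. Markers of neurons and Schwann cells, of the tissue in which the family is best known, had up to 3 of 7 at or under the floor. They stood at 9.27, 4.85 and 10.7 CPM in sham and 6.59, 8.47 and 5.80 CPM in BLM. In sham, 3 of 5 compared were at least 2-fold higher in Lamp1-enriched than in Lamp1-depleted cells, against 27.5% of all genes. Another 1 was lower, against 25.2%. In BLM 1 of 4 was higher, against 34.4%, and 1 was lower, against 22.6%. Mesothelial markers were lowest in sham Lamp1-enriched cells at 1.30 CPM and highest in BLM unsorted cells at 25.3 CPM.

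Set against the endothelial markers of the same library, beta genes had 2.15, 1.72 and 1.88 reads per 100 marker reads in sham and 2.82, 1.68 and 2.80 in BLM. The gamma genes had 12.7, 9.17 and 7.11 reads in sham and 11.6, 13.9 and 8.98 in BLM. Pcdhac2 had 0.634, 0.633 and 0.472 in sham and 0.217, 0.186 and 0.143 in BLM. Against these markers Pcdhac2 was lower in each BLM library than in its sham counterpart. The sums of epithelial, of lymphocyte and of platelet markers were also lower in each BLM library, and Pcdhac2 was not set against them. Per 100 fibroblast marker reads, beta genes had 17.8, 19.1 and 51.5 reads in sham and 7.26, 6.48 and 19.0 in BLM. The gamma genes had 106, 102 and 194 reads in sham and 29.8, 53.6 and 60.8 in BLM. Against either marker list, beta and gamma genes varied less between Lamp1-enriched and Lamp1-depleted cells than their CPM did. Both marker sums were themselves higher in Lamp1-enriched cells, so that dividing by them made a smaller difference nearly certain. The sums of smooth muscle and pericyte, epithelial and platelet markers were also higher there and were not used as a reference. For gamma genes the Lamp1-enriched and Lamp1-depleted values lay closer together against endothelial markers in sham and against fibroblast markers in BLM. The part of these cell types in the protocadherin values was not tested.

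Other protocadherins were followed on a list of 12 nonclustered genes, which lie outside the cluster and have their own cytoplasmic tails. In sham, 7 of 8 compared genes were at least 2-fold higher in Lamp1-enriched than in Lamp1-depleted cells, against 27.5% of all genes, and none was lower, against 25.2%. Those higher were Pcdh1 (log2 ratio 2.61), Pcdh7 (3.57), Pcdh12 (3.24), Pcdh17 (3.15), Pcdh18 (3.27), Pcdh19 (2.51) and Pcdh20 (3.27). The endothelial gene Pcdh12 is known from cell junctions of vessels. In BLM 7 of 10 were higher, against 34.4% of all genes: Pcdh1 (2.94), Pcdh7 (5.12), Pcdh12 (3.54), Pcdh17 (3.97), Pcdh18 (2.62), Pcdh19 (2.02) and Pcdh20, with 45 against 0 reads. Pcdh11x was lower, against 22.6% of all genes, but it had 11 reads in each library, so that its ratio came from scaling alone. Total counts as the scale shifted the log2 ratios of this comparison by 0.56. In unsorted cells 4 of 11 were lower in BLM, against 16.0% of all genes, namely Pcdh18 (-2.19), Pcdh19 (-1.62), Pcdh20 (-2.43) and Pcdh9 (-1.44), and Pcdh15 (1.28) was higher, against 13.9%. In Lamp1-enriched cells 2 of 10, Pcdh18 (-1.82) and Pcdh20 (-1.55), were lower, against 7.81%, and 2, Pcdh11x (11 against 1 reads) and Pcdh15 (20 against 4), were higher, against 10.2%. In Lamp1-depleted cells 3 of 9 were lower, against 22.3%, namely Pcdh7 (8 against 58 reads), Pcdh18 (-1.17) and Pcdh20 (0 against 11), and Pcdh11x (11 against 5) was higher, against 13.7%.

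Among 9 large cadherins of the Fat, Dachsous and Celsr groups, which act in planar cell polarity and Hippo signalling, 6 were higher and 2 lower in Lamp1-enriched than in Lamp1-depleted sham cells, against 27.5% and 25.2% of all genes. In BLM 7 were higher and 2 lower, against 34.4% and 22.6%. Fat4 (3.05 in sham, 4.43 in BLM) and its ligand Dchs1 (3.22 and 4.08) were among those higher, and Celsr1 (-2.24 and -2.99) and Celsr3 (-1.67 and -2.10) were lower. Fat1 (2.52 and 2.48), Fat3 (1.76 and 2.37), Dchs2 (3.86 and 3.17) and Celsr2 (2.30 and 2.68) were also higher in both, and Fat2 passed 2-fold in BLM (1.47). Between treatments, Celsr1 (1.004) and Celsr3 (1.59) were higher in BLM unsorted cells, against 13.9% of all genes, and Fat2 (1.49) in BLM Lamp1-enriched cells, against 10.2%. In Lamp1-depleted cells 2 of 7 compared, again Celsr1 (1.27) and Celsr3 (1.33), were higher in BLM, against 13.7%, and Fat3 (-1.06) was lower, against 22.3%.

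Of 21 genes for promoter choice and chromatin, all were compared. In sham 1 was higher and 2 were lower in Lamp1-enriched than in Lamp1-depleted cells, against 27.5% and 25.2% of all genes, and in BLM 2 were higher and 3 lower, against 34.4% and 22.6%. Tet1, a 5-methylcytosine dioxygenase, was higher in Lamp1-enriched cells (1.63 in sham and 1.98 in BLM). Smchd1, a chromatin protein known to repress clustered protocadherins, was lower (-1.91 and -1.05), as was Tet2 in sham (-1.22). In BLM the cohesin subunit gene Rad21 was higher (1.002), and Dnmt1 (-1.10) and Tet3 (-1.001) were lower. In Lamp1-depleted cells Dnmt3a (1.04) was higher in BLM, against 13.7% of all genes, and Rad21 (-1.04) and Stag2 (-1.32) were lower, against 22.3%. Tet1 was lower in BLM than in sham unsorted cells (-1.15), and none of the 21 passed 2-fold between treatments in Lamp1-enriched cells.

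Of 18 cytoplasmic partners and cleavage enzymes, 6 were higher and 3 lower in Lamp1-enriched than in Lamp1-depleted sham cells, against 27.5% and 25.2% of all genes. In BLM 8 were higher and 4 lower, against 34.4% and 22.6%. These shares were near those of all genes, and the values below describe single genes. Subunits of the WAVE complex, which drives actin branching, differed: Nckap1 (3.11 and 3.62), Abi2 (2.01 and 2.44), Cyfip1 (1.29 and 1.71) and Wasf1 (1.21 and 2.17) were higher, whereas Cyfip2 (-3.92 and -4.16) was lower. Of the focal adhesion kinases, Ptk2 was higher (2.59 and 2.70) and Ptk2b lower (-2.86 and -3.40). Marcks was higher (1.66 and 1.48), Psen2 was lower (-1.14 and -1.57), and in BLM alone Abi1 (1.07) and Adam10, the sheddase of gamma protocadherins (1.87), were higher and Axin1 (-1.14) was lower. In BLM unsorted cells Ptk2b (1.32), Psen2 (1.58) and Ncstn (1.04) were higher than in sham, against 13.9% of all genes. In Lamp1-depleted cells Abi1 (-1.03) and Adam10 (-1.55) were lower in BLM, against 22.3%, and none of the 18 passed 2-fold between treatments in Lamp1-enriched cells.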

How the data were processed

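The authors deposited raw counts of reads per gene for 6 libraries, with no normalization. The submitters' processing notes name Trimmomatic 0.36, STAR 2.5.2b, featureCounts of Subread 1.5.2, DESeq2 and build GRCm38; the annotation release, the strand setting and the handling of reads that overlap several genes are not given in the sources used here. Libraries were grouped by their labels, and totals per library set the counting error. The members, lists and comparisons were chosen with earlier results of these data known.

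TMM factors were computed with edgeR 4.0.16 and alternative size factors with DESeq2 1.42.0 (R 4.3.3); log2 ratios used a prior count of 0.5 reads (Python 3.11.15, numpy 2.4.6, scipy 1.17.1, pandas 2.3.3, matplotlib 3.10.9). With 1 library per condition no p-value was computed. A gene with 0 reads in the lower library was given a bound against the 3-read floor per library. Exon lengths came from GENCODE M21. The programs were tested on simulated data. Members named in the text were the 6 of each cluster with the highest mean CPM, the C-type genes, and the 3 of each cluster with the largest ratio in each comparison among those with at least 50 reads; Pcdhga10, Pcdhb1, Pcdhb11, Pcdhb12, Pcdhga8, Pcdhgb7 and Pcdhgb8 were named after their values were seen. Values of cell type markers are summed CPM; 1 listed marker, Siglecf, was not found by that symbol. Alternatives were DESeq2 size factors, total counts, thinned counts, a prior count of 2, other read minimums and folds, and whole exon length; 2 settings that leave out Gm26917 reads were chosen after the data had been seen.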

Additional observations from a re-analysis of the deposited data

Results flagged for a closer look

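Between sham and BLM libraries, the beta and gamma clusters went in opposite directions in Lamp1-enriched and unsorted cells, each with an interval that did not hold 0. The log2 ratio of BLM over sham was 0.64 in Lamp1-enriched and -0.29 in unsorted cells for the beta cluster, and 0.41 and -0.81 for the gamma cluster. In Lamp1-depleted cells the beta cluster stood at -0.39, opposite to Lamp1-enriched cells, and the gamma cluster at 0.24, opposite to unsorted cells. The last of these turned to -0.48 with total counts. These differences rest on 1 library per condition, and the difference between kinds of cell was not tested.

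Of the genes named in the text, 21 showed the same opposite directions between Lamp1-enriched and unsorted cells. Among beta genes the pairs of log2 ratios, Lamp1-enriched first, were 0.87 and -0.64 for Pcdhb4, 0.59 and -0.52 for Pcdhb14, 0.64 and -0.35 for Pcdhb16, 0.56 and -0.39 for Pcdhb17, 0.46 and -0.65 for Pcdhb19, and 0.64 and -1.36 for Pcdhb12. Among gamma B genes they were 0.74 and -0.48 for Pcdhgb1, 0.47 and -0.65 for Pcdhgb2, 0.41 and -1.04 for Pcdhgb4, 0.42 and -1.03 for Pcdhgb5, 0.16 and -0.67 for Pcdhgb6, 0.31 and -0.80 for Pcdhgb7, and 0.66 and -0.62 for Pcdhgb8. Among gamma A genes they were 0.75 and -0.72 for Pcdhga4, 0.49 and -0.67 for Pcdhga5, 0.69 and -1.07 for Pcdhga7, 0.58 and -0.85 for Pcdhga8, and 0.62 and -1.09 for Pcdhga11. The C-type gamma genes had 0.15 and -0.67 for Pcdhgc3, 0.34 and -0.86 for Pcdhgc4, and 0.30 and -1.01 for Pcdhgc5. None of these differences was tested, and the share of all genes with such opposite directions was not computed. Endothelial markers summed to 2337 CPM in BLM against 3734 in sham unsorted cells and to 6349 against 6051 in Lamp1-enriched cells, and their part in the pattern was not tested.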

How the results depend on the processing

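No cluster ratio that was 2-fold or more changed sign under any scaling or thinning tried, and no replicate could be left out, since each condition had 1 library. Over the alternative settings, 61 of the main values (gene counts and main cluster ratios) moved and 139 did not. Of the other values, 180 moved and 1907 did not. A ratio moved if it left its counting interval. A gene count, effective number or median per kilobase moved if it changed by more than a fixed share. Against TMM, total counts shifted every log2 ratio by -0.26 for BLM over sham in unsorted, -0.72 in Lamp1-depleted and 0.01 in Lamp1-enriched cells.

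For Lamp1-enriched over Lamp1-depleted cells in sham, the log2 ratio was 2.69 (beta) and 2.20 (gamma) with total counts, and 2.08 (alpha), 2.66 (beta) and 2.16 (gamma) with total counts outside Gm26917. In BLM it was 3.09 (alpha), 4.46 (beta) and 3.09 (gamma) with total counts, and for gamma 2.42 outside Gm26917 and 2.38 with DESeq2 size factors. For BLM over sham in unsorted cells it was -2.35 (alpha), -0.55 (beta) and -1.08 (gamma) with total counts, and -0.46 (beta) and -0.99 (gamma) outside Gm26917. In Lamp1-enriched cells the gamma ratio was 0.38 after thinning to the smallest total outside Gm26917. The gamma ratio in Lamp1-depleted cells, which was under 2-fold, turned from 0.24 to -0.48 with total counts.

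The counts of genes moved as follows. With total counts, and also outside Gm26917, 3 genes were higher and 2 lower in sham Lamp1-enriched than unsorted cells. For BLM over sham in Lamp1-depleted cells, total counts gave 0 higher and 17 lower, total counts outside Gm26917 gave 1 higher, and a prior count of 2 gave 1 higher. In Lamp1-enriched cells, either thinning gave 3 higher, and thinning outside Gm26917 gave 1 lower. Thinning to the smallest total left 0 lower in Lamp1-enriched against unsorted cells in each treatment, and thinning outside Gm26917 left 0 in sham. With at least 1 read, genes lower in Lamp1-enriched than unsorted cells were 7 in sham and 3 in BLM. For BLM over sham they were 22 in unsorted, 5 in Lamp1-enriched and 14 in Lamp1-depleted cells, and genes higher were 1 in unsorted and 6 in Lamp1-depleted cells. With at least 50 reads, 0 were lower in Lamp1-enriched than unsorted cells in each treatment. For BLM over sham 3 were higher and 1 lower in Lamp1-enriched and 3 were lower in Lamp1-depleted cells.

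At a log2 ratio of at least 2, Lamp1-enriched over unsorted cells had 0 higher in sham, and 3 higher and 0 lower in BLM. BLM over sham had 1 lower in unsorted, 0 higher and 1 lower in Lamp1-enriched, and 0 higher and 4 lower in Lamp1-depleted cells. At a log2 ratio of at least 3, Lamp1-enriched over Lamp1-depleted cells had 13 higher for sham and 28 for BLM. Against unsorted cells, Lamp1-enriched cells had 0 higher and 0 lower in sham and 1 higher and 0 lower in BLM. BLM over sham had 0 lower in unsorted, 0 higher and 0 lower in Lamp1-enriched, and 0 higher and 2 lower in Lamp1-depleted cells. The fewer genes at the higher folds, and the more at 1 read, follow from the settings. The cause of the other movements was not tested. Depth limited the alpha genes other than Pcdhac2, which were near the floor, and BLM Lamp1-depleted cells, where 1 read was worth the most CPM.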
